A study of Homo sapiens with 4 samples.

Results

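The interferon-stimulated antiviral genes were examined as a list of 41 named genes, which cells switch on during an interferon response. Members were found by matching Ensembl identifiers to symbols, and all 41 were among the 61533 identifiers of the count table. By role, 9 members were placed with the RNA sensors, 4 with the transcription factors and 28 with the effectors. IFITM and HLA genes were left out of the list. The question asked of the data was whether, and in which of these roles, mRNA levels differed when TFE3 was knocked down.

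The cells were Caki-1, an established human renal cell carcinoma line, and 2 arms were compared. Cells of the shControl arm, labelled as wild type, had received a lentivirus with a control sequence, and cells of the shTFE3 arm, labelled TFE3-KD, a lentivirus with short hairpin RNA against TFE3, a transcription factor known for driving lysosomal genes. Both arms were replated 24 hours after infection, put on puromycin at 1 µg/ml 12 hours later and selected for 3 days in McCoy's medium with serum, so that lentivirus and puromycin were common to all 4 libraries. The labels name neither an interferon treatment nor a separate viral challenge, do not give the number of hairpins, and do not say whether the 2 libraries of an arm came from separate infections, so the spread behind each p-value is that between these libraries and may be technical.

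Interferons are secreted proteins that warn cells of viral infection. Cytosolic sensors such as RIG-I and MDA5 recognise viral RNA and trigger interferon production, and secreted interferon then acts through its receptors and the JAK kinases on STAT proteins. STAT2 and IRF9 are subunits of the complex ISGF3, which binds the interferon-stimulated response element (ISRE) in the promoters of genes whose products block viral entry, translation, replication or release. Many of the sensors and transcription factors are themselves induced, and renal epithelial cells, like most cell types, can mount this response.

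The members were chosen as interferon-stimulated genes, so a share of ISRE letters above that of all genes follows in part from the choice. RefSeq promoter windows on GRCh38.p14, each 300 bases long with 250 before and 50 after a transcript start, were at hand for 33 of the 41 members. The 8 without a window were OASL, OAS2, IFIT2 and TRIM22, which rose, and DHX58, IRF7, USP18 and MX2, which did not pass or were not tested. The core letters GAAA, any 2 bases and GAAA were searched on both strands, where overlapping matches were kept as 1 run. They were found in 22 of the 33 members (66.7%), against 4.38% of the 27305 genes in the promoter table. The core was in 4 of 6 RNA sensors, 18 of 24 effectors and 0 of 3 transcription factors (STAT2, IRF1 and IRF9), and no match says only that these letters were not in these windows. Cores of members whose mRNA rose after TFE3 knockdown are shown with the flanking 5 bases, 5′ to 3′ in the direction of the gene, with the matched letters in capitals, where TTTC marks a core read on the opposite strand.
ISG15 (chr1:1013379-1013404, plus strand): ctcggGAAAGGGAAACCGAAActgaa
IFI6 (chr1:27672334-27672353, minus strand): gagggGAAAATGAAActctg
OAS3 (chr12:112938326-112938345, plus strand): gaaacGAAACTGAAAgcagg
DDX60 (chr4:168318826-168318845, minus strand): gaaggGAAACTGAAAcctaa
EIF2AK2 (chr2:37156972-37156991, minus strand): aagggGAAAACGAAActgag
HERC5 (chr4:88456989-88457014, plus strand): tacagTTTCCTTTTCCTTTTCgattc
RSAD2 (chr2:6877627-6877646, plus strand): tcaacTTTCAGTTTCacatg
SAMD9 (chr7:93118101-93118120, minus strand): gaaatGAAACTGAAAccaaa
Cores were also found in members whose mRNA did not pass the test or fell, of which IFIH1, BST2, TRIM21 and PARP14 did not pass and PARP9 fell.
IFIH1 (chr2:162318691-162318710, minus strand): gaatcGAAACAGAAAccaaa
BST2 (chr19:17405740-17405765, minus strand): tctggGAAACTGAAACTGAAAaccta
TRIM21 (chr11:4393665-4393690, minus strand): gagcgGAAACTGAAAGTGAAAtaggg
PARP14 (chr3:122680805-122680824, plus strand): gaaacGAAAGCGAAAgagtc
PARP9 (chr3:122564327-122564346, minus strand): caaagTTTCAGTTTCgcttc
Among the members with a window, the core was held by 10 of 11 that rose and by 11 of 18 that fell or did not pass, where the 10 include RSAD2, which was tested only through its shTFE3 libraries, and a match is a description of letters, not a measured binding site. The position of each core relative to the transcript start is shown in the map of ISRE cores.

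**Figure D1:**
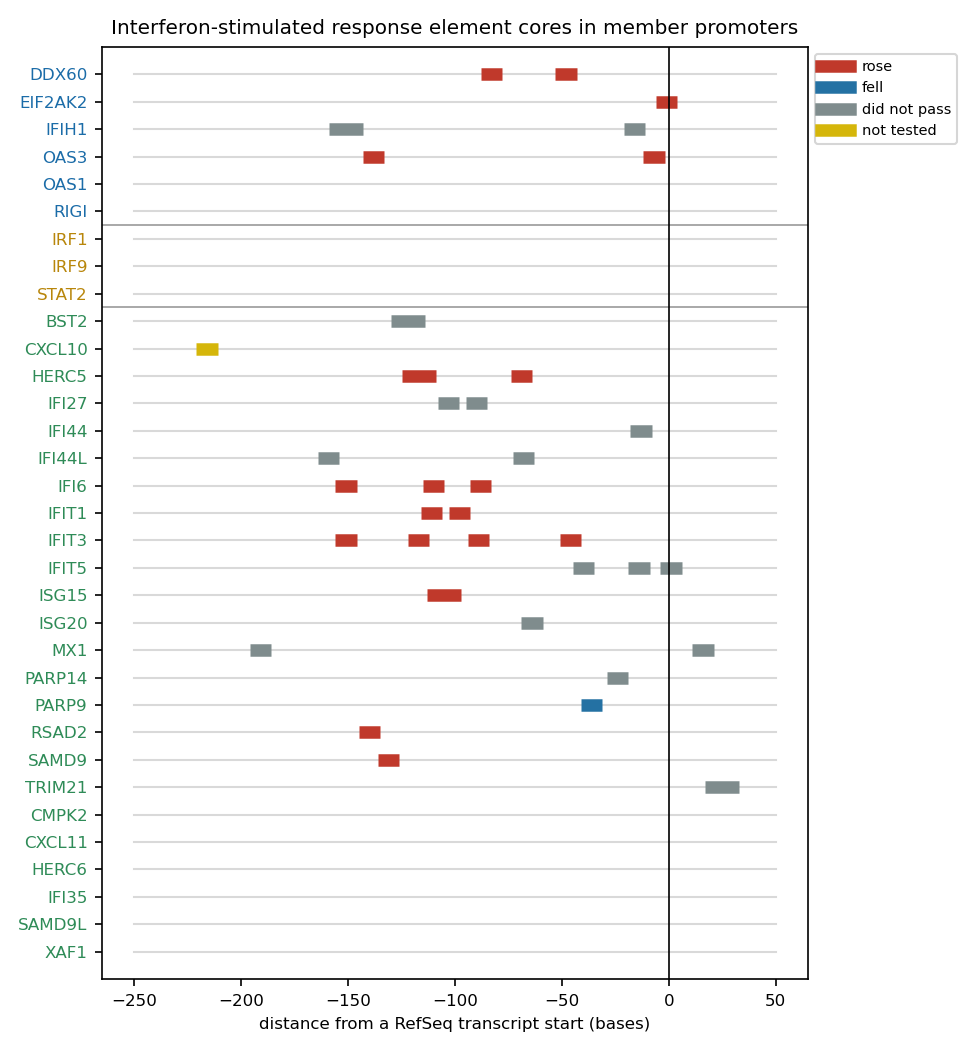
Cores of the interferon-stimulated response element (GAAA, any 2 bases, GAAA, either strand) in the promoter windows of the 33 members that have one, by distance from a RefSeq transcript start in bases. Grey lines span the window, bars are cores coloured by the edgeR call of the gene, windows of a gene with several starts are drawn on 1 line, and gene names are coloured by role (blue, RNA sensors; gold, transcription factors; green, effectors). Cores lie in 22 of the 33 members, mostly upstream of the start.

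Among the members, other motifs were found less often than the ISRE core, which was in 4.38% of all genes. The letters TTCNNNGAA, the core of the gamma-activated site (GAS) that STAT dimers bind, were in 10 of 33 members (30.3%) against 9.38% of all genes, among them IRF1 and IRF9. The E-box CACGTG, the core that TFE3 and many other helix-loop-helix factors bind, was in 4 of 33 (12.1%), EIF2AK2, HERC5, IRF9 and ISG20, against 8.77% of all genes. The longer form TCACGTGA, which contains the E-box, was in 0 of 33 members and in 1.18% of all genes. The letters GGG, any 2 bases and TTTCC, a form of the NF-kB site, were in 3 of 33 (9.09%), IFIH1, OAS3 and RIGI, against 2.33% of all genes.

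The labels were checked on the targeted gene. TFE3 mRNA was 131 and 128 counts per 1e6 counts (CPM) in the shControl libraries and 70.1 and 66.9 CPM in the shTFE3 libraries, and SLC36A1, the amino acid transporter named with it by the series, was 25.0 and 24.5 against 15.3 and 16.5 CPM. Total counts lay between 17270180 and 17742519 per library, and 3 counts, the limit that a count of 0 allows, corresponded to 0.167 to 0.176 CPM, for counting error only. Mitochondrial genes held 4.09% and 4.08% of counts in shControl and 3.61% and 3.46% in shTFE3. Renal epithelial markers were present in part, with PAX8, KRT8, KRT18 and CDH16 detected in every library and PAX2 and CA9 at 0 counts. EPCAM of the same list was scarce, with 21 and 10 counts (shControl) against 8 and 11 (shTFE3). CDH1 had 4.87 and 5.75 against 6.12 and 4.78 CPM, and VIM 1040 and 1070 against 1130 and 1180 CPM. Of the 12 markers, KRT18 (log2 fold change -0.28, edgeR adjusted p 0.00191) and CDH2 (-0.64, 2.45e-06) fell. Of 11 leukocyte markers, 5 (among them CD3E, CD2, MS4A1 and FCGR3A) were at 0 and 9 had at most 3 counts in every library, and their summed level was 1.93 and 1.23 CPM in shControl against 1.78 and 1.85 CPM in shTFE3. Of the 5 markers of plasmacytoid dendritic cells, the leukocytes known for making interferon, CLEC4C, LILRA4 and GZMB were at 0, and the summed level of the list was 18.1 and 17.8 against 15.9 and 16.2 CPM. Most of that sum was TCF4 (17.4 and 17.2 against 14.2 and 14.7 CPM), while IL3RA was higher in shTFE3 (0.704 and 0.646 against 1.73 and 1.46 CPM). The part of the mitochondrial share and of these markers in the results was not tested, and in bulk RNA fewer cells of a kind and less RNA per cell cannot be told apart.

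Of the 41 members, 36 had enough counts to be tested, and 15 of these rose after TFE3 knockdown, 2 fell and 19 did not pass (edgeR with its quasi-likelihood test, at an adjusted p under 0.05 by Benjamini and Hochberg over the 15950 genes tested). Over all genes tested, 10.3% rose and 12.9% fell. RSAD2, counted among the 15, passed the filter on low counts only through its shTFE3 libraries, so it had to differ to be tested. The 36 tested members had a median log2 fold change of 0.19, between -0.30 and 1.49, beside a median of 0.0015 over all genes tested. Most of the changes were small, and among the members that passed the test, OASL and RSAD2 alone had a log2 fold change above 1. The shTFE3 libraries both lay above the shControl libraries in CPM for 20 tested members and both below for 5, while over all genes tested this held for 29.8% and 30.5%.

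**Figure D2:**
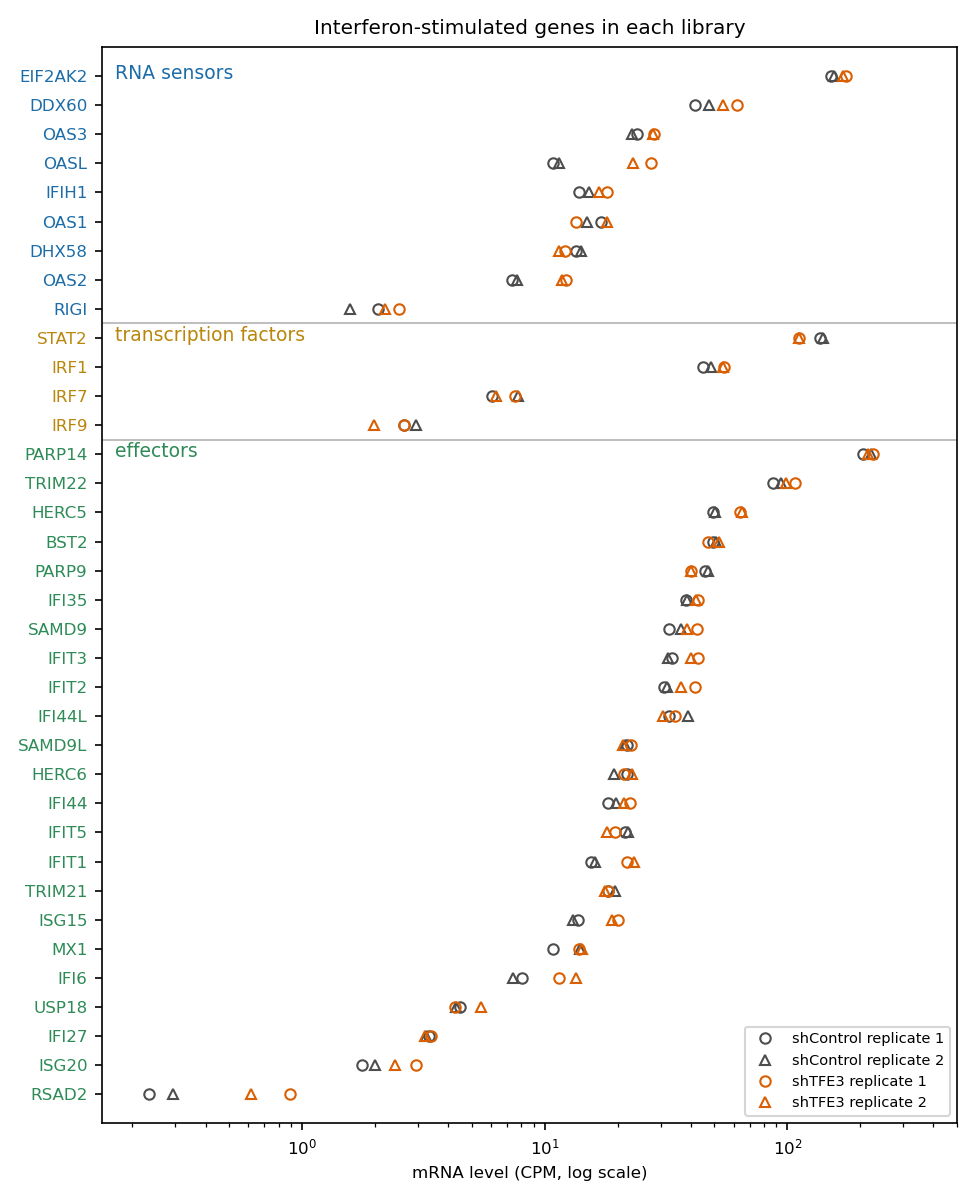
mRNA level of the 36 tested members in each of the 4 libraries, in CPM on a log axis, grouped by role and ordered by level. Circles and triangles are replicates 1 and 2 of shControl (grey) and shTFE3 (orange). Levels run from 0.235 CPM for RSAD2 to 226 CPM for PARP14, and for OASL both shTFE3 libraries lie far to the right of both shControl libraries.

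By role, rises were counted among sensors and effectors more than among transcription factors, of which only 4 were listed. The shares over all genes tested were 10.3% for rises and 12.9% for falls. Of 9 RNA sensors 5 rose, 0 fell and 4 did not pass, and their median log2 fold change was 0.27. Of 28 effectors 23 were tested, of which 9 rose, 1 fell and 13 did not pass, with a median of 0.19. The 9 rises include RSAD2, which was tested only through its shTFE3 libraries. Of 4 transcription factors 1 rose, 1 fell and 2 did not pass, with a median of -0.14, which was 0.017 when IRF9 was left out by a filter of 50 counts and 0.020 without shTFE3 replicate 2. The difference between the roles was not tested, since members of a role are no replicates. In each library, the median over the RNA sensors of the log2 level relative to the shControl mean was -0.032 and 0.031 in the shControl libraries, and in the shTFE3 libraries it was 0.32 and 0.26. For the effectors it was -0.022 and 0.022 against 0.17 and 0.16, and for the transcription factors -0.069 and 0.065 against 0.022 and -0.22. Both shTFE3 libraries thus lay above both shControl libraries for sensors and effectors, while for the transcription factors the arms overlapped.

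**Figure D3:**
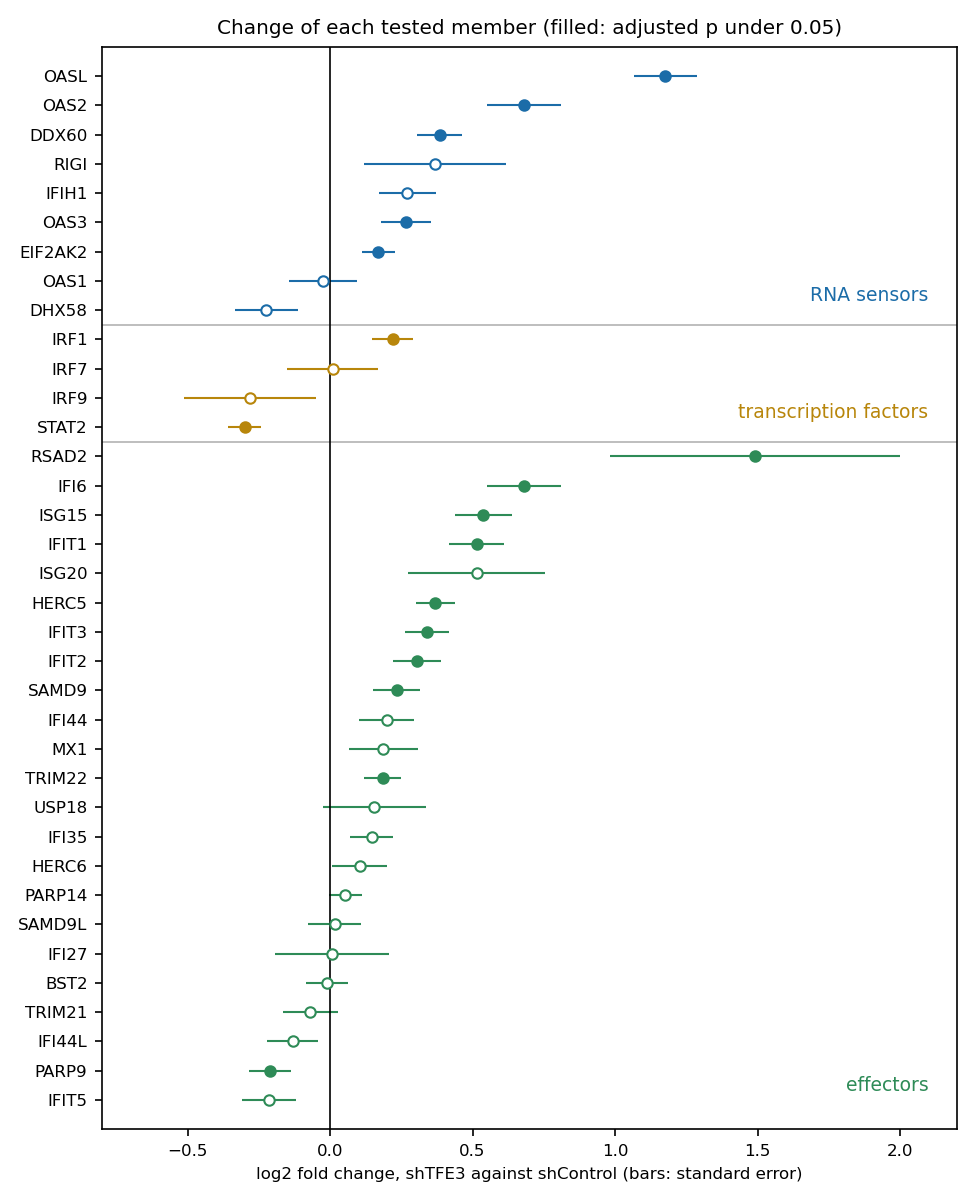
Log2 fold change of each tested member, shTFE3 against shControl, with its standard error as a bar, grouped by role. Filled points passed the edgeR test at an adjusted p of 0.05. OASL leads the RNA sensors at 1.18, and among the transcription factors IRF1 (0.22) and STAT2 (-0.30) are the filled points on either side of 0.

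How many members rose depended on single libraries, and the number of genes called over all genes fell as well in each fit below. Leaving out shControl replicate 1 gave 8 rises in place of 15 and leaving out its replicate 2 gave 12. Leaving out shTFE3 replicate 1 gave 6 and its replicate 2 gave 4, and those counted in each of these fits were all among the 15. HERC5, ISG15, OAS2 and OASL rose, and STAT2 fell, with any 1 library left out. Without shTFE3 replicate 2, all of these except OASL passed close to the threshold, and IFIT1, IFIT2 and IFIT3 missed it narrowly. DESeq2 called 8 rises and 1 fall, while over all genes it called 1959 in place of 3709. With no filter on low counts edgeR called 1 rise, that of OASL, and 0 falls, with 384 genes called over all genes. In that fit 16 members were higher and 4 lower at an unadjusted p under 0.05. The share of all genes at that threshold is not given here, so these 2 counts have no background to be read against.

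**Figure D4:**
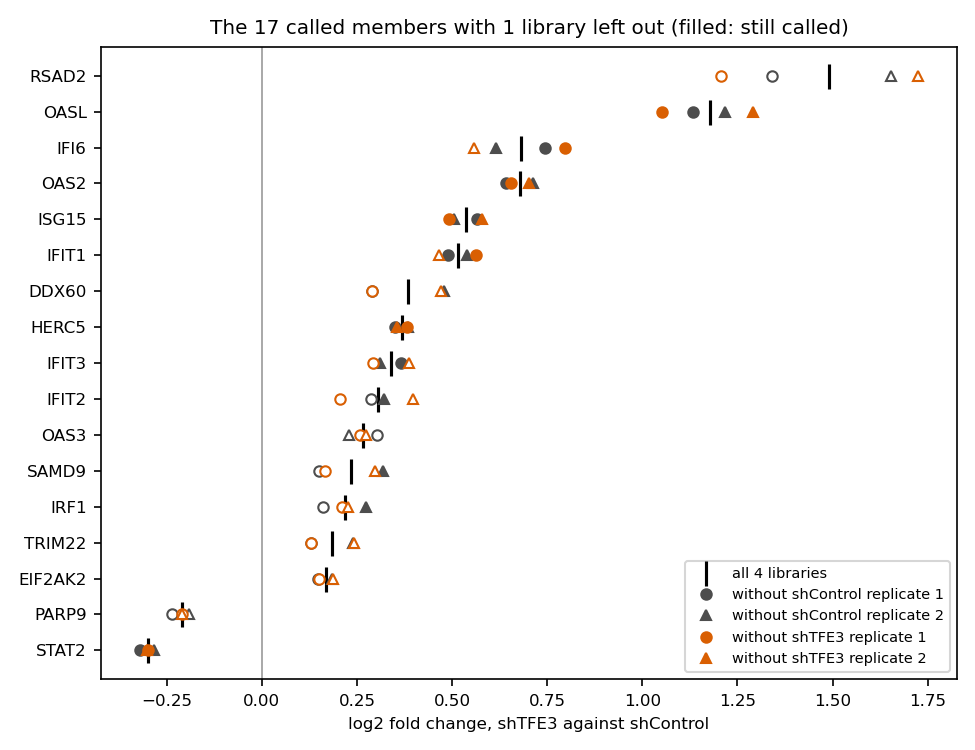
Log2 fold changes of the 17 called members with all 4 libraries (black ticks) and with each library left out in turn (grey for shControl, orange for shTFE3, circles for replicate 1 and triangles for replicate 2). Filled symbols kept an adjusted p under 0.05 in edgeR. No member changes its direction, and HERC5, ISG15, OAS2, OASL and STAT2 have 4 filled symbols each.

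Among the cytosolic RNA helicases, DDX60 rose and the RIG-I-like receptors themselves did not pass. DDX60, a helicase that supports signalling by RIG-I-like receptors (ENSG00000137628, chromosome 4, 168216293 to 168318807, minus strand), had 41.5 and 47.4 CPM in shControl and 61.7 and 54.2 CPM in shTFE3. The arms did not overlap, and the log2 fold change was 0.38 (edgeR, SE 0.080, adjusted p 0.000845). Without shTFE3 replicate 1 the value was 0.29 (edgeR adjusted p 0.134) and without shTFE3 replicate 2 it was 0.47 (0.0566). IFIH1, which encodes the sensor of long double-stranded RNA MDA5, had 13.8 and 15.2 CPM in shControl against 18.1 and 16.8 CPM in shTFE3, a log2 fold change of 0.27 (edgeR, SE 0.10, adjusted p 0.0643). With scaling by library totals alone IFIH1 passed (edgeR adjusted p 0.0359). RIGI, the sensor of RNA with a 5′ triphosphate, was scarce, with 35 and 27 counts (shControl) against 45 and 39 (shTFE3) (edgeR adjusted p 0.313). DHX58, which encodes LGP2, a relative that regulates the signalling of both, had 13.5 and 14.1 CPM against 12.1 and 11.5 CPM, a log2 fold change of -0.22 (edgeR, SE 0.11, adjusted p 0.157). IFIH1 and DHX58 lay on opposite sides of 0, both without overlap of the arms and neither past the test. Such separation of the arms is common, with 29.8% of all genes tested higher and 30.5% lower in both shTFE3 libraries.

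Enzymes that double-stranded RNA activates, with their relative OASL, rose in 4 of 5 genes, beside 10.3% of all genes tested. Of these rises, those of EIF2AK2 and OAS3 did not pass in DESeq2. OASL is a relative of the oligoadenylate synthetases that lacks their enzyme activity and is known to enhance signalling by RIG-I (ENSG00000135114, chromosome 12, 121019111 to 121039242, minus strand). Its mRNA was 10.8 and 11.5 CPM in the shControl libraries and 27.4 and 23.2 CPM in the shTFE3 libraries, 2.26 times the control level. The lowest shTFE3 library thus lay well above the highest shControl library, and the log2 fold change was 1.18 (edgeR, SE 0.11, adjusted p 1e-08). The authors' deposited table gave OASL a log2 fold change of 1.18 and an adjusted p of 1.75e-11. With single libraries left out, the value of OASL stayed between 1.05 and 1.29.

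OAS1, OAS2 and OAS3 encode synthetases that make the messenger molecule activating RNase L, which degrades RNA, and lie side by side on chromosome 12 (112906777 to 113011723). OAS2 had 7.33 and 7.69 CPM in shControl and 12.2 and 11.8 CPM in shTFE3, a log2 fold change of 0.68 (edgeR, SE 0.13, adjusted p 0.000237). OAS3 had 24.0 and 22.8 against 28.3 and 27.9 CPM, a log2 fold change of 0.27 (edgeR, SE 0.087, adjusted p 0.0268). OAS1 had 17 and 15 CPM in shControl and 13.5 and 18.0 CPM in shTFE3, so that its 2 shTFE3 libraries enclosed both control values (log2 fold change -0.024, edgeR adjusted p 0.918). The rise of OAS2 passed with any library left out, whereas that of OAS3 had edgeR adjusted p of 0.0639 to 0.197 with single libraries left out and of 0.215 in DESeq2.

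EIF2AK2 encodes PKR, a kinase that halts translation on binding double-stranded RNA. It was the most abundant RNA sensor in CPM, at 151 and 155 CPM in shControl and 174 and 169 CPM in shTFE3. The arms did not overlap, and the rise was small, with a log2 fold change of 0.17 (edgeR, SE 0.057, adjusted p 0.0334). With any 1 library left out EIF2AK2 did not pass (edgeR adjusted p 0.106 to 0.253), nor in DESeq2 (0.0824) or with the replicate number as a block (0.0615).

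The transcription factors moved in both directions. STAT2, the subunit of ISGF3 that carries its transactivation domain (ENSG00000170581, chromosome 12, 56341597 to 56360155, minus strand), had 136 and 140 CPM in shControl and 112 and 112 CPM in shTFE3. The fall to 0.812 times the control level had a log2 fold change of -0.30 (edgeR, SE 0.059, adjusted p 0.000433) and passed with any 1 library left out. IRF1, a factor that drives genes of the gamma interferon response and responds to cytokines as well, had 44.9 and 48.6 against 54.8 and 54.1 CPM, a log2 fold change of 0.22 (edgeR, SE 0.072, adjusted p 0.0299). The rise of IRF1 did not pass in DESeq2 (adjusted p 0.166) or without shControl replicate 1 (edgeR, 0.307), shTFE3 replicate 1 (0.165) or shTFE3 replicate 2 (0.157).

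IRF7 and IRF9 were less abundant. IRF7, the factor that amplifies transcription of alpha interferon genes, had 6.04 and 7.75 CPM in shControl and 7.57 and 6.30 CPM in shTFE3, with overlapping arms (log2 fold change 0.009 in edgeR, SE 0.16, adjusted p 0.98). IRF9, the DNA-binding subunit of ISGF3, had 45 and 50 counts (shControl) against 47 and 35 (shTFE3) (log2 fold change -0.28 in edgeR, SE 0.23, adjusted p 0.419). In GENCODE release 29, exons of another gene cover 48.4% of the exon bases of IRF9 and 22.0% of those of IRF1. The strand setting of the counting is not given in the sources used here, so reads of overlapping genes cannot be told apart.

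Among the effectors, the IFIT family rose except for IFIT5. IFIT proteins bind foreign RNA, in part by its 5′ end, and hinder its translation, and the 4 genes lie on chromosome 10 between 89283694 and 89421001. IFIT1 had 15.5 and 16.1 CPM in shControl and 21.9 and 23.3 CPM in shTFE3, a log2 fold change of 0.52 (edgeR, SE 0.097, adjusted p 0.000285). IFIT2 had 31.1 and 31.9 against 41.5 and 36.3 CPM (log2 fold change 0.31 in edgeR, SE 0.083, adjusted p 0.00856). IFIT3 had 33.4 and 32.2 against 42.9 and 40.1 CPM (log2 fold change 0.34 in edgeR, SE 0.078, adjusted p 0.00212). IFIT5 had 21.4 and 22.0 CPM in shControl and lower values, 19.4 and 18.0 CPM, in shTFE3, a log2 fold change of -0.21 that did not pass (edgeR, SE 0.095, adjusted p 0.107). In edgeR, IFIT1 reached 0.0551 as adjusted p when shTFE3 replicate 2 was left out, IFIT3 of 0.081 and 0.0528 without shTFE3 replicates 1 and 2, and IFIT2 of 0.054 without shControl replicate 1 and 0.165 and 0.0502 without shTFE3 replicates 1 and 2 (DESeq2 0.0856). Of the exon bases of IFIT2, 10.3% are shared with exons of LIPA, a lysosomal lipase gene, and another gene.

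The IFIT1 and IFIT5 genes start within 22.0 kb of each other, and both hold ISRE cores near their start. The RefSeq promoter windows of both, and that of ISG15, are given with the cores in capitals.
ISG15 promoter (chr1:1013247-1013546, plus strand): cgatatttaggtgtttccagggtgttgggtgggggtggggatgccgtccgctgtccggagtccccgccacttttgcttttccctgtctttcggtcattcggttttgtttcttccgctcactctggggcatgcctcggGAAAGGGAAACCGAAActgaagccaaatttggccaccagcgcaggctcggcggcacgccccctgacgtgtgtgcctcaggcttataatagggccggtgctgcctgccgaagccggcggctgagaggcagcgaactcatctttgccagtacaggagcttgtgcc
IFIT1 promoter (chr10:89392373-89392672, plus strand): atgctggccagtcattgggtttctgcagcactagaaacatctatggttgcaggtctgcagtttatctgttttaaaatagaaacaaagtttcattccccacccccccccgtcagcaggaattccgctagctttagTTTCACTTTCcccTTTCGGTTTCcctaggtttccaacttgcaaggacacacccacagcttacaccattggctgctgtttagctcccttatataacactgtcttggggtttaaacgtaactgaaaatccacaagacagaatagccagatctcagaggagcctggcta
IFIT5 promoter (chr10:89414318-89414617, plus strand): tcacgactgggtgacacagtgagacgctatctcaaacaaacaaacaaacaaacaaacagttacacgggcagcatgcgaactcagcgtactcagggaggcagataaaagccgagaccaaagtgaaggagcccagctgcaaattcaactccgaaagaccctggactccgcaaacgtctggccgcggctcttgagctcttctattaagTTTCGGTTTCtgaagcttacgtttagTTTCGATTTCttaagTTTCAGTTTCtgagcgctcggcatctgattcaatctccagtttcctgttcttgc
Cores lay between positions -116 and -94 in IFIT1 and between -45 and 5 in IFIT5, counting the first transcribed base as 0, and the IFIT5 start of RefSeq was not found in a GENCODE transcript. The log2 ratio of IFIT1 to IFIT5 in CPM was -0.46 and -0.45 in the shControl libraries and 0.18 and 0.37 in the shTFE3 libraries. Their order in CPM thus reversed between the arms, but CPM takes no account of gene length. Per kilobase of exon the means of IFIT1 and IFIT5 were 3.43 and 5.41 CPM in shControl and 4.9 and 4.66 CPM in shTFE3. By that measure the order did not reverse in shTFE3 replicate 1.

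Ratios of other related members also differed between the arms. Pairs on the same chromosome were picked after their values were seen, and with 2 libraries an arm an exact two-sided permutation test of such a ratio cannot go below 0.333, so none was made. HERC5, the main ligase that attaches ISG15 to new proteins in human cells, rose, while its neighbour HERC6 did not pass, and the log2 ratio of the pair was 1.18 and 1.39 for shControl against 1.59 and 1.51 for shTFE3. The ratio of SAMD9 to SAMD9L, adjacent genes whose products restrict poxviruses and other viruses, was 0.57 and 0.77 against 0.90 and 0.88. That of PARP14 to PARP9 was 2.17 and 2.23 against 2.50 and 2.43. That of OASL to OAS1 was -0.65 and -0.39 against 1.02 and 0.36. Each ratio was written with the member of the higher fold change on top, so its direction was fixed by the choice and the values are a description.

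**Figure D5:**
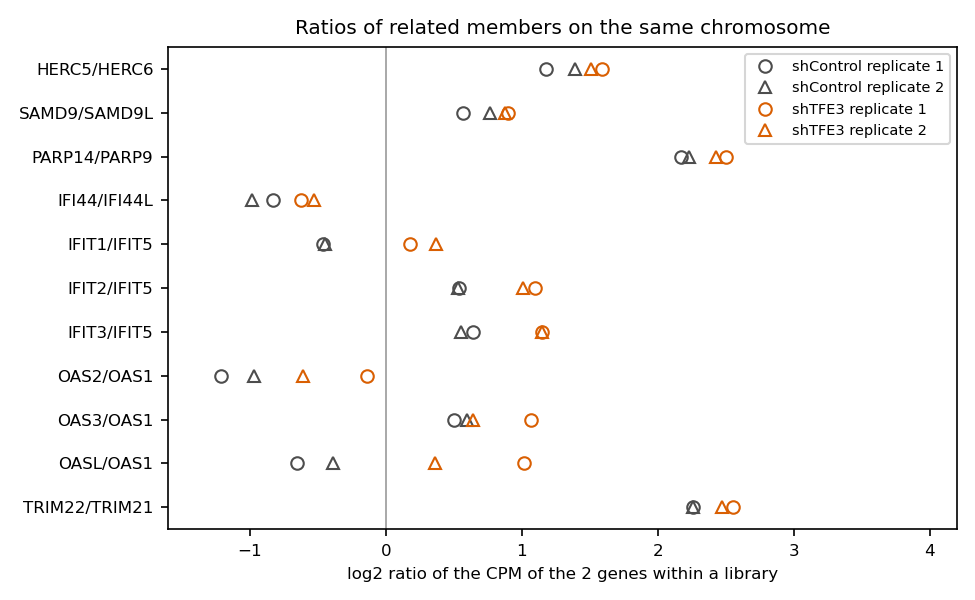
Log2 ratio of the CPM of related members on the same chromosome within each library, with shControl in grey and shTFE3 in orange, circles for replicate 1 and triangles for replicate 2. The member with the higher fold change is on top, so for all 11 pairs the orange symbols lie to the right, with IFIT1/IFIT5 passing from -0.46 and -0.45 to 0.18 and 0.37.

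The genes of ISG15 conjugation rose in part. ISG15, a ubiquitin-like protein that is attached to other proteins and also secreted (ENSG00000187608, chromosome 1, 1001138 to 1014540, plus strand), had 13.7 and 13.1 CPM in shControl and 20.1 and 18.9 CPM in shTFE3. HERC5 (ENSG00000138646, chromosome 4, 88457117 to 88506163, plus strand) had 49.2 and 50.4 against 63.8 and 64.8 CPM. The arms of both were well apart, with log2 fold changes of 0.54 for ISG15 (edgeR, SE 0.10, adjusted p 0.000334) and 0.37 for HERC5 (edgeR, SE 0.069, adjusted p 0.000262), and both passed with any library left out. HERC6 had 21.8 and 19.3 against 21.3 and 22.8 CPM (log2 fold change 0.10, edgeR adjusted p 0.486). USP18, the protease that removes ISG15 and also restrains the interferon receptor, had 76 and 73 counts (shControl) against 77 and 97 (shTFE3) (log2 fold change 0.16 in edgeR, SE 0.18, adjusted p 0.588). Beside these members, UBA7 and UBE2L6, the activating and conjugating enzymes of ISG15, did not pass.

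IFI6, an effector of mitochondria and the endoplasmic reticulum that limits cell death and flavivirus replication, had 8.09 and 7.40 CPM in shControl and 11.4 and 13.4 CPM in shTFE3. Its log2 fold change was 0.68 (edgeR, SE 0.13, adjusted p 0.000331), with 0.56 and an adjusted p of 0.0686 without shTFE3 replicate 2. The other 4 IFI-named members did not pass. IFI35 (38.2 and 38.4 against 42.7 and 42.1 CPM) and IFI44 (18.3 and 19.7 against 22.4 and 21.2 CPM) had higher values in both shTFE3 libraries, with log2 fold changes of 0.15 and 0.20. IFI27, known as strongly induced in interferon-treated epithelium, had 57 and 55 counts (shControl) against 61 and 57 (shTFE3). IFI44L had 32.4 and 38.8 against 34.4 and 30.6 CPM, with overlapping arms. Of the 3 members that the authors' deposited table lists, OASL, OAS2 and IFI6, IFI6 had a log2 fold change of 0.682 and an adjusted p of 0.00719 there.

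Restriction factors and the macrodomain PARPs changed little. TRIM22, a ubiquitin ligase that restricts HIV and influenza virus, had 86.9 and 93.8 CPM in shControl and 107 and 98.6 CPM in shTFE3, and SAMD9 had 32.5 and 36.5 against 42.5 and 38.7 CPM. Both rose, with log2 fold changes of 0.19 (edgeR, SE 0.065, adjusted p 0.0411) and 0.23 (SE 0.082, 0.0415). PARP9, which acts with the ligase DTX3L to raise interferon-dependent transcription, fell from 45.6 and 47.0 to 40.0 and 39.9 CPM (log2 fold change -0.21 in edgeR, SE 0.074, adjusted p 0.0403). These 3 calls were close to the threshold. TRIM22 and SAMD9 passed with shControl replicate 2 left out and did not with any other library left out (edgeR adjusted p 0.115 to 0.364 and 0.136 to 0.387), and PARP9 did not pass with any library left out (0.107 to 0.222). PARP9 also did not pass with the replicate number as a block (0.0614), nor did TRIM22 (0.0541). In DESeq2 the adjusted p was 0.148 for TRIM22, 0.225 for SAMD9 and 0.214 for PARP9.

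BST2, which encodes tetherin, a membrane protein that holds budding virus on the cell, had the highest level per kilobase of exon of all members, 44.7 CPM per kilobase in shControl and 44.4 in shTFE3. Its libraries had 49.2 and 51.0 CPM against 47.3 and 52.2 CPM (log2 fold change -0.010 in edgeR, SE 0.074, adjusted p 0.945). PARP14, an enzyme with antiviral macrodomains and the most abundant member in CPM, had 204 and 221 against 226 and 215 CPM. TRIM21, an antibody receptor of the cytosol, and SAMD9L also had overlapping arms, with log2 fold changes of -0.069 and 0.016. In the order of levels per kilobase in shControl, BST2 was followed by STAT2 (22.6), PARP14 (20.3) and IFI35 (19.4), with RIGI (0.418), ISG20 (0.255) and RSAD2 (0.0546) at the lower end of the tested members. Lengths are those of GENCODE release 29, and the counts may rest on another annotation.

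Several hallmark effectors were near or below detection in both arms. RSAD2, which encodes viperin, an enzyme that makes a chain-terminating nucleotide, had 4 and 5 counts (shControl) against 16 and 11 (shTFE3). It passed the filter only through the shTFE3 libraries, so a difference was needed for it to be tested at all, and its log2 fold change of 1.49 (edgeR, SE 0.51, adjusted p 0.0354) did not pass with any 1 library left out (0.0987 to 0.231). CMPK2, its neighbour in opposite orientation, which supplies nucleotide substrates, had 0 and 0 counts against 4 and 1. MX2, a GTPase that restricts HIV, had 2 and 1 against 0 and 2 counts, and XAF1, a promoter of cell death, had 5 and 3 against 4 and 6. CXCL10, a chemokine that attracts T cells, had 1 and 1 against 0 and 1 counts, and CXCL11, its relative on chromosome 4, had 0 counts in all 4 libraries. These 5 members were not tested. MX1, the GTPase that blocks influenza virus, was measured at 10.8 and 14.0 against 13.9 and 14.3 CPM, and ISG20, an RNA exonuclease, at 30 and 34 against 53 and 43 counts, and neither passed (edgeR adjusted p 0.29 and 0.125).

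Interferon genes themselves were almost absent from the counts. Of 22 ligand genes of the alpha, beta, gamma, lambda and minor types, 15 had 0 counts in every library. IFNE, an interferon known from epithelium, had 45 and 51 counts (shControl) against 46 and 47 (shTFE3) (log2 fold change -0.11, edgeR adjusted p 0.758). The other ligands summed to 4 and 1 counts (shControl) against 3 and 1 (shTFE3), with at most 2 counts of any gene in a library. These were IFNA1, IFNA2, IFNA13, IFNA21, IFNW1 and IFNB1, where IFNB1 had 1 count in shTFE3 replicate 2 and 0 in the others. The alpha genes are near-identical copies, so reads shared among them may have been left out or split. A transient or secreted signal that left little mRNA at harvest was not measured.

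The receptor chain and its kinases were expressed, and some of them changed. Of 6 receptor genes IFNGR1, the ligand-binding chain for gamma interferon, rose, with 41.4 and 43.5 CPM in shControl and 54.8 and 53.2 CPM in shTFE3 (log2 fold change 0.35 in edgeR, SE 0.073, adjusted p 0.000885, and 0.0572 and 0.0535 without shTFE3 replicates 1 and 2). For the alpha and beta interferon receptor, IFNAR1 had 73.5 and 82.5 against 77.9 and 75.0 CPM and IFNAR2 had 4.22 and 4.93 against 3.17 and 3.32 CPM, with edgeR adjusted p of 0.808 and 0.0555. Exons of other genes cover 83.2% of the exon bases of IFNAR2, so its counts may not be its own. JAK2, a kinase of the gamma interferon receptor and of many cytokine receptors, had 27.1 and 30.1 CPM in shControl and 57.9 and 48.5 CPM in shTFE3. Its log2 fold change of 0.89 (edgeR, SE 0.088, adjusted p 3.1e-08) is larger than that of any member except OASL and RSAD2. TYK2, a kinase of the alpha and beta receptor, rose with a log2 fold change of 0.30 (edgeR, SE 0.067, adjusted p 0.0015, and 0.0652 without shTFE3 replicate 2).

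Genes that lead to interferon production, and inhibitors of its signalling, were mixed. Of 15 tested genes of nucleic acid sensing, 1 rose, 1 fell and 13 did not pass. STING1, the adaptor for cytosolic DNA, fell from 41.8 and 38.6 to 27.9 and 30.6 CPM (log2 fold change -0.46 in edgeR, SE 0.082, adjusted p 0.000161, and 0.0579 without shTFE3 replicate 1), while the rise was that of RNF135, a ligase that activates RIG-I (log2 fold change 0.28 in edgeR, SE 0.090, adjusted p 0.0242). RNF135 did not pass in DESeq2 (adjusted p 0.199) or without shControl replicate 1 (edgeR, 0.185), shTFE3 replicate 1 (0.197) or shTFE3 replicate 2 (0.0924). Of 11 inhibitors 1 rose and 3 fell. SOCS1, which blocks JAK kinases, rose from 62 and 59 counts to 95 and 102 (log2 fold change 0.63 in edgeR, SE 0.17, adjusted p 0.0089), and SOCS3, an inhibitor of STAT3 signalling, fell from 105 and 104 to 87.4 and 86.7 CPM (log2 fold change -0.26 in edgeR, SE 0.061, adjusted p 0.00223). SOCS1 did not pass in DESeq2 (adjusted p 0.19) or with shControl replicate 2 or either shTFE3 replicate left out (edgeR, 0.0626 to 0.108), and SOCS3 had 0.0543 and 0.0687 without shTFE3 replicates 1 and 2. TRIM27, a ligase listed with the inhibitors, fell from 47.1 and 48.8 to 39.2 and 40.7 CPM (log2 fold change -0.26, edgeR adjusted p 0.0111), and did not pass without shControl replicate 2 (0.102), shTFE3 replicate 1 (0.12) or shTFE3 replicate 2 (0.0852), nor in DESeq2 (0.09). PDLIM2, a ligase for nuclear STAT proteins, fell from 15.2 and 13.9 to 11.7 and 11.9 CPM with an edgeR adjusted p of 0.0495, and passed under none of the alternatives run (0.0509 to 0.337). Over the whole list of 102 other pathway genes 75 were tested, of which 13 rose, 7 fell and 55 did not pass, beside the 10.3% and 12.9% of all genes tested. Their median was 0.011 as a log2 fold change. The rises in this list were 5 and 6 without shTFE3 replicates 1 and 2 and the falls were 1 in both cases.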

How the data were processed

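Polyadenylated RNA of 4 libraries, 2 for each arm, was sequenced as paired 150-base reads. The authors deposited raw read counts per Ensembl gene. Trim Galore, STAR, featureCounts, DESeq2 and the build hg38 are named, without versions, per the submitters' processing notes, while the annotation, the strand setting and how multi-mapping reads were counted are not given in the sources used. A table that the authors deposited holds their own comparison for 546 genes. Per the file headers it gives a normalized mean signal, the log2 fold change with its error, a test score and p-values.

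A gene name table gave symbols for 61415 of 61533 identifiers, GENCODE release 29 (GRCh38) gave coordinates and exon lengths, and RefSeq (GRCh38.p14) gave promoters. For 28 of the 33 members with a window, 30 bases after the start were found in a GENCODE transcript of the same gene. edgeR 4.0.16 in R 4.3.3 was run on the counts of all genes: TMM factors, filterByExpr by arm, and a model of the arm alone. Genes were called by quasi-likelihood F-tests at a Benjamini-Hochberg value of 0.05, and this step was tested on simulated data. The standard error (SE) is the absolute log2 fold change over the root of the F statistic. CPM uses the TMM factors. Replicates differed by more than sampling noise (chi-square per degree of freedom 1.997 for shControl, 3.301 for shTFE3), so each library counted as 1. Alternatives were other scalings and filters, DESeq2 1.42.0, limma-voom (limma 3.58.1), a replicate block and each library left out. Members, lists and tests were chosen with earlier results of these data known. All members are named, and of the pathway list the up to 4 genes with the smallest p in each role among those past the test, and each ligand with a count. Members that did not pass are named to complete their role. Some genes of the lists are not reported here.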

Additional observations from a re-analysis of the deposited data

How the results depend on the processing

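The 3709 genes called over all genes were 1959 in DESeq2 and 384 with no filter on low counts, and 1043 to 2514 with 1 library left out. The 15 member rises were 8 in DESeq2, 1 with no filter and 4 to 12 with 1 library left out. The 2 falls were 1 in DESeq2, 1 with library totals, 1 with the replicate block, 0 with no filter and 1 with any library left out. The 13 rises of pathway genes were 19 with library totals, 8 in DESeq2, 0 with no filter and 5 to 11 with 1 library left out, and their 7 falls were 0 with no filter and 1 to 5 with 1 library left out. Without the filter, 17 pathway genes were higher and 12 lower at an unadjusted p under 0.05 in edgeR, where the share of all genes is not given here. The sensor median log2 fold change lay between 0.23 and 0.32 with 1 library left out. The effector median was 0.22 with library totals and between 0.14 and 0.24 with 1 library left out. It was 0.17 without RSAD2, an alternative chosen after seeing the data. The transcription factor median was 0.017 with at least 50 counts in 2 libraries, where 1 of its members was not tested, and between -0.24 and 0.020 with 1 library left out, where the cause was not tested.

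Same-numbered libraries did not deviate together (correlation of deviations -0.096 over 10914 genes). As it rests on a single difference in each arm, this value cannot exclude a shared infection or day, which the labels do not give. With the replicate number as a block, 13 members rose and 1 fell, 14 pathway genes rose and 5 fell, and 3558 genes were called. The prior degrees of freedom of edgeR were 22.4 with all libraries and 2.09 with no filter. They were 4.25 and 3.98 without shTFE3 replicates 1 and 2. They were infinite in the block fit and when shControl replicate 1 was dropped, and 452.2 when its replicate 2 was dropped. The counts of these fits are therefore not on equal terms, and neither are their adjusted p-values. This limit extends to calls described as passing with any library left out. The ISRE core less 1 base, GAAANNGAA, was in 23 members against 22. Members with few counts, such as RIGI and IRF9, had standard errors of 0.25 and 0.23 on the log2 scale, which limits what could be called.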

Other observations

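Beyond the listed members, the guanylate-binding proteins are GTPases that attack vacuoles of pathogens and are known as gamma interferon targets. Of the 5 in the pathway list, which is not the whole family, 4 rose, beside 10.3% of all genes tested. GBP5 had 2.05 and 2.0 CPM in shControl and 4.51 and 3.43 CPM in shTFE3, a log2 fold change of 0.97 (edgeR, SE 0.22, adjusted p 0.0018). GBP1 had 15.2 and 15.1 against 20.5 and 23.0 CPM (log2 fold change 0.53), GBP4 18.1 and 18.4 against 26.0 and 22.9 CPM (0.42) and GBP2 47.5 and 43.5 against 61.4 and 57.5 CPM (0.39). GBP3 did not pass. All 5 were in the list of pathway genes when it was written, but that list was itself chosen with earlier results of these data known. The choice to describe GBP2, GBP4, GBP5 and IFI16 beside the genes of smallest p was made after their values were seen. Exons of other genes cover 9.9% of the exon bases of GBP2. These calls had an edgeR adjusted p of 0.0842 for GBP5, 0.0665 for GBP2 and 0.0878 for GBP4 without shTFE3 replicate 1, and of 0.0619 for GBP1 without shTFE3 replicate 2. GBP5 had an adjusted p of 0.0831 in DESeq2, while the authors' deposited table gave 0.0474.

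The antiviral RNA-binding proteins ZNFX1 and ZC3HAV1, the latter encoding ZAP, which degrades RNA rich in CpG, rose by similar amounts. ZNFX1 had 131 and 129 CPM in shControl and 167 and 173 CPM in shTFE3 (log2 fold change 0.38 in edgeR, SE 0.058, adjusted p 1.9e-05), and ZC3HAV1 had 134 and 139 against 185 and 171 CPM (0.38, SE 0.059, 2.65e-05). Both passed with any 1 library left out. IRF5, a factor known from leukocytes, fell from 44.6 and 44.1 to 34.6 and 31.0 CPM (log2 fold change -0.44, edgeR adjusted p 0.000192, and 0.0566 without shTFE3 replicate 2). IFI16, a sensor of nuclear and cytosolic DNA, fell from 135 and 140 to 114 and 117 CPM (-0.26, edgeR adjusted p 0.00225, and 0.074 and 0.0613 without shTFE3 replicates 1 and 2). Among the 35 tested genes of this group of other inducible genes, 8 rose, 2 fell and 25 did not pass, beside 10.3% and 12.9% of all genes tested.

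IL3RA, a cytokine receptor chain listed as a marker of plasmacytoid dendritic cells, had 12 and 11 counts (shControl) against 31 and 26 (shTFE3) (log2 fold change 1.23, edgeR adjusted p 0.00887), while CLEC4C, LILRA4 and GZMB of the same list had 0 counts in all libraries and TCF4, the fifth marker, had 17.4 and 17.2 against 14.2 and 14.7 CPM (log2 fold change -0.26, edgeR adjusted p 0.0715). Of the leukocyte markers, CD14 had 2 and 2 counts against 10 and 11 and was not tested, and ITGAM, the one marker tested, had 29 and 13 against 15 and 21 (log2 fold change -0.29, edgeR adjusted p 0.633).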
